A study of Mus musculus with 12 samples.

Results

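The genes followed here set the shape and position of mitochondria. They were 10 in all: the fusion genes Mfn1, Mfn2 and Opa1, the fission genes Dnm1l, Fis1, Mff, Mief1 and Mtfp1, and the transport genes Rhot1 and Rhot2. They were found by gene symbol among the 28977 gene IDs of the expression table, and each of the 10 symbols matched 1 ID. All 10 passed the filter on low values, which kept 12026 genes with at least 1 FPKM (fragments per kilobase of exon, scaled to the reads of each library) in at least 3 libraries.

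Mitochondria form a network that is joined by fusion and cut by fission, and its pieces are carried along the cytoskeleton. The mitofusins Mfn1 and Mfn2 are GTPases that join outer membranes, and Opa1 is the GTPase that joins inner membranes and holds cristae together. Dnm1l encodes Drp1, the cytosolic GTPase that assembles around a mitochondrion and constricts it after Mff or Mief1 has recruited it. Fission can set a damaged piece apart before mitophagy, the removal of mitochondria by autophagy, which the title of the series names. In macrophages the balance of fusion and fission is known to shift with activation and with the uptake of dying cells.

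The cells were J774A.1, a mouse line with macrophage character. Hypochlorous acid (HOCl) is the oxidant that the neutrophil enzyme myeloperoxidase makes. There were 4 groups of 3 libraries: HOCl at 100 µM in the salt solution HBSS, HOCl at 20 µM in HBSS, HBSS alone as the vehicle (0 µM HOCl), and cells given cell media. Exposure lasted 1 h in every group, and all cells then spent 24 h in full medium before mRNA was taken. HOCl can react with components of medium. Both HOCl groups are set against HBSS because it is their vehicle. The labels name neither a genetic change nor a clone, and they do not say which dose was lethal. Nothing in the labels says that replicates were separate cultures, so p-values measure the spread between these samples only.

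Between 17683937 and 21408518 reads stood behind a library. Cell media replicates 1 and 2 were unlike the rest of the set. Their correlation was 0.988, whereas either one reached only 0.946 to 0.971 with any of the other 10, and pairs among those 10 had 0.974 to 0.994. The other 10 were not uniform in this. Cell media replicate 2 had its highest values with 100 µM replicates 3 and 2 (0.971 and 0.968) and its lowest with HBSS replicate 1 (0.946). The lowest pair among the 10 was 100 µM replicate 3 with cell media replicate 3. Results are given on 12 libraries and again on the 10 without cell media replicates 1 and 2. All 10 macrophage markers were at 1 FPKM or more, with sums of 3655 to 4146 FPKM at 100 µM and 3167 to 3466 FPKM in HBSS. Their sums were 3310 to 3467 FPKM with 20 µM and 3335 to 3508 FPKM in cell media. Lyz2 (2020 to 2892 FPKM over all libraries) and Cd68 (771 to 918 FPKM) made up most of each sum. No other macrophage marker exceeded 92.4 FPKM, so the sums say little about the rest. Summed markers of T cells, B cells, fibroblasts, epithelium, endothelium and red cells stayed at or below 0.675 FPKM in every library. The 3 neutrophil markers summed to 13.9 to 16.4 FPKM at 100 µM and 9.93 to 12.8 FPKM in HBSS, and S100a8 made up nearly all of it, with Ly6g and S100a9 at or below 0.120 FPKM. In bulk libraries a change in the cells present and a change of RNA per cell cannot be told apart.

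The promoters of 3 members are printed because the results turn on them or because they held a motif that was searched for. RefSeq windows of build GRCm38.p6, from 250 bases before to 50 bases after each start site, were matched by symbol, and all 10 genes had at least 1 of 15 windows. Each is written 5′ to 3′ on the strand of its gene, with motif matches in capitals. The printed window of Fis1 lies at chr5:136953025-136953324 on the plus strand, that of Opa1 at chr16:29579084-29579383 on the plus strand, and that of Rhot2 at chr17:25844476-25844775 on the minus strand. Another Fis1 window, at chr5:136961827-136962126 on the plus strand, is not printed and held none of the motifs searched for.
Fis1: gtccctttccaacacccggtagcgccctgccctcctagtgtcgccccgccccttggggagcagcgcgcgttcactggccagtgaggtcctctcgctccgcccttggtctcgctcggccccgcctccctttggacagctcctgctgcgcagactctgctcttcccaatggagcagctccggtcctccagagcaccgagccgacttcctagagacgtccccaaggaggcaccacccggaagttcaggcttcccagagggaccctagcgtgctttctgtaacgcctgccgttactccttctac
Opa1: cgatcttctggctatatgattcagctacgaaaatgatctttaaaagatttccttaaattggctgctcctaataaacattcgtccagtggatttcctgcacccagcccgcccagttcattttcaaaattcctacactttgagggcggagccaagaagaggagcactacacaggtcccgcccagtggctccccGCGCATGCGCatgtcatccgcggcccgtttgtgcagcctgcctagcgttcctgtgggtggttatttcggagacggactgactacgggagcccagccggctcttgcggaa
Rhot2: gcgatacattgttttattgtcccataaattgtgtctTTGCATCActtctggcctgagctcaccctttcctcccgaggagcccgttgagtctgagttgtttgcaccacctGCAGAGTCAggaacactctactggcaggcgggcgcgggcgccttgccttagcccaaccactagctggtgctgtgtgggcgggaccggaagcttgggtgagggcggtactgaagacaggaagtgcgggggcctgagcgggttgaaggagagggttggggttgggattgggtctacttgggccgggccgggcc
The capitals in Opa1 are matches on both strands to GCGCATGCG, the motif of NRF1, a regulator of mitochondrial genes. The capitals in Rhot2 are a match to TGATGNAA, the composite motif of ATF4, and a match to the antioxidant response element TGACNNNGC, both on the opposite strand. Over all 32851 windows these motifs stood in 1.75% for NRF1, 3.97% for the ATF4 composite and 12.4% for the antioxidant response element. No other member held one of these 3, and no member held TCAAGGTCA of ERR (0.423% of windows), TGACGTCA of CREB (1.79%) or the E-box CACGTG (7.15%). A match is a description of letters in a window, not of a bound site. The 15 windows had 48.7% to 70.3% GC, against a median of 52.7% over all windows, and 8 to 33 CpG pairs, against a median of 7.

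In cells given HBSS alone, Dnm1l had the highest level of the 10 at 31.4 ± 1.84 FPKM (SD, n = 3), above 85.1% of kept genes. Fis1 followed at 19.7 ± 0.819, and then Mff at 16.8 ± 1.48, Mfn2 at 16.0 ± 1.15 and Opa1 at 15.9 ± 0.480 FPKM, which overlapped one another. Rhot1 stood at 12.4 ± 0.200 FPKM, above Mief1 at 11.2 ± 0.444 and Mfn1 at 10.8 ± 0.407, which overlapped. The lowest pair was Rhot2 at 3.75 ± 0.213 and Mtfp1 at 3.08 ± 0.576 FPKM, again overlapping, above 31.1% and 26.2% of kept genes. Mtfp1 rested on 81 to 159 reads a library and Rhot2 on 257 to 351, whereas the other 8 genes had at least 633 reads in every library.

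**Figure D1:**
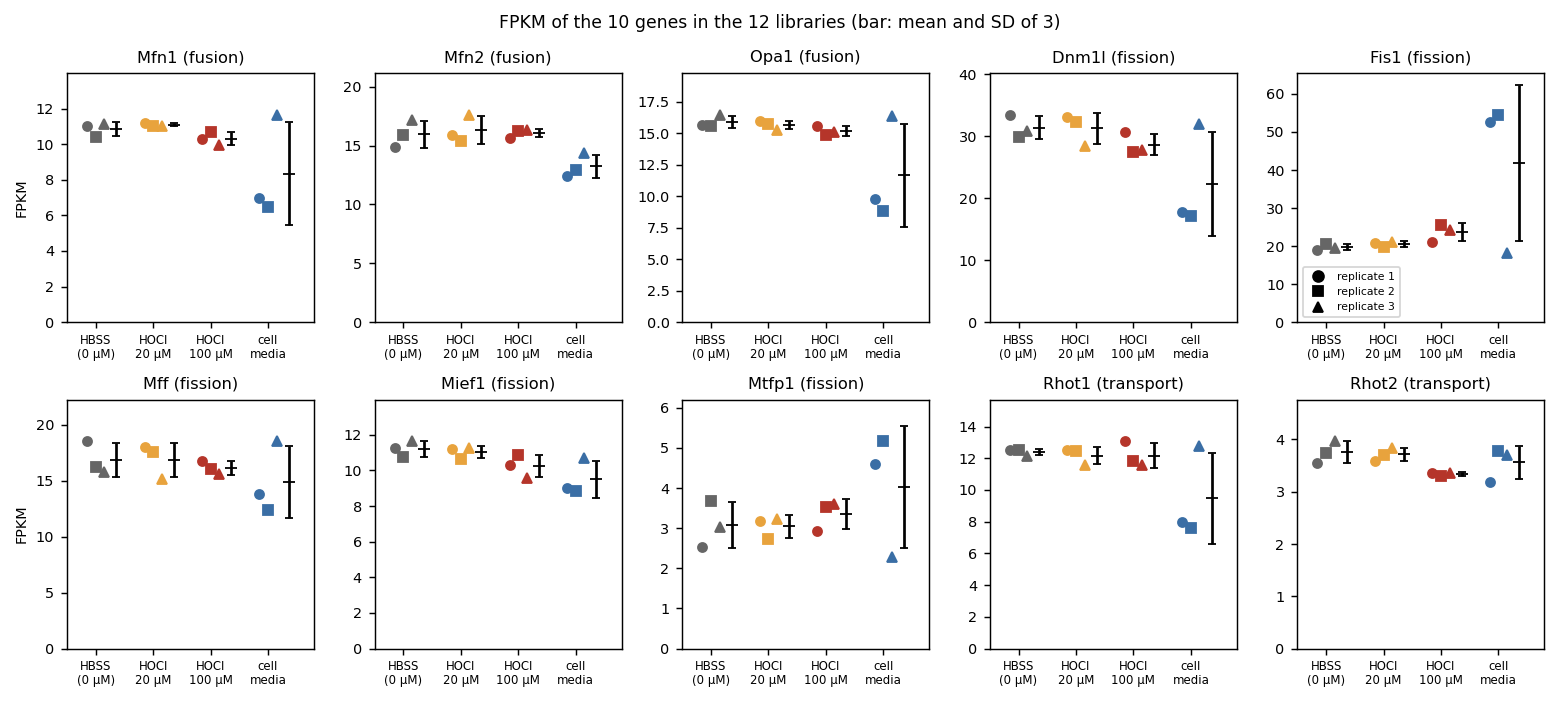
FPKM (vertical axes, from 0) of each of the 10 genes in every library, by group, with the mean and SD of 3 beside the points and a marker for each replicate number. The HBSS, 20 µM and 100 µM libraries lie close together in most panels, while cell media replicates 1 and 2 lie far above the rest for Fis1 and far below them for Dnm1l and Opa1.

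The fusion genes held near one level over the doses. Mfn1 (ENSMUSG00000027668) was at 11.0, 10.4 and 11.1 FPKM in HBSS, at 11.2, 11.0 and 11.0 FPKM with 20 µM HOCl, and at 10.3, 10.7 and 9.96 FPKM with 100 µM. The 100 µM libraries of Mfn1 all lay below the 20 µM libraries and overlapped those of HBSS. Mfn2 (ENSMUSG00000029020), which also tethers mitochondria to the endoplasmic reticulum, was at 14.8, 15.9 and 17.1 FPKM in HBSS, at 15.9, 15.4 and 17.6 FPKM with 20 µM, and at 15.6, 16.3 and 16.3 FPKM with 100 µM. Opa1 (ENSMUSG00000038084) was at 15.7, 15.6 and 16.5 FPKM in HBSS, at 15.9, 15.8 and 15.3 FPKM with 20 µM, and at 15.6, 14.8 and 15.1 FPKM with 100 µM. For Mfn2 and Opa1 the libraries of all 3 groups overlapped.

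Among the fission genes, Fis1 had the largest difference at the high dose. Fis1 (ENSMUSG00000019054) encodes an outer membrane protein that fission needs in yeast and whose role in mammals is debated. It was at 19.0, 20.6 and 19.5 FPKM in HBSS, at 20.9, 19.7 and 21.0 FPKM with 20 µM, and at 21.0, 25.7 and 24.1 FPKM with 100 µM. All 100 µM libraries lay above all HBSS libraries, but replicate 1 at 100 µM lay among those of 20 µM. Dnm1l (ENSMUSG00000022789) was at 33.5, 29.9 and 30.8 FPKM in HBSS, at 33.2, 32.2 and 28.5 FPKM with 20 µM, and at 30.6, 27.5 and 27.8 FPKM with 100 µM. Its 100 µM libraries were the lowest on average and overlapped both other groups.

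The receptors of Drp1 and the inner membrane fission protein overlapped between HBSS and both doses. Mff (ENSMUSG00000026150) was at 18.5, 16.2 and 15.8 FPKM in HBSS, at 18.0, 17.5 and 15.1 FPKM with 20 µM, and at 16.8, 16.0 and 15.6 FPKM with 100 µM. Mief1 (ENSMUSG00000022412), which encodes the receptor MiD51, was at 11.3, 10.8 and 11.7 FPKM in HBSS, at 11.2, 10.6 and 11.3 FPKM with 20 µM, and at 10.3, 10.9 and 9.60 FPKM with 100 µM. For Mief1, 100 µM replicate 2 was the only one of its group that reached the HBSS range. Mtfp1 (ENSMUSG00000004748), an inner membrane protein whose loss lengthens mitochondria, was at 2.53, 3.68 and 3.04 FPKM in HBSS, at 3.17, 2.72 and 3.24 FPKM with 20 µM, and at 2.94, 3.54 and 3.59 FPKM with 100 µM. The SD of Mtfp1 in HBSS, 0.576 FPKM, stood beside 0.295 FPKM from counting error alone.

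The transport genes encode Miro proteins, calcium-binding GTPases of the outer membrane that link mitochondria to motors through the Trak adaptors. Rhot1 (ENSMUSG00000017686) was at 12.5, 12.5 and 12.2 FPKM in HBSS, at 12.5, 12.4 and 11.5 FPKM with 20 µM, and at 13.1, 11.8 and 11.6 FPKM with 100 µM, and its groups overlapped. Rhot2 (ENSMUSG00000025733) was at 3.54, 3.75 and 3.97 FPKM in HBSS, at 3.59, 3.70 and 3.85 FPKM with 20 µM, and at 3.36, 3.30 and 3.36 FPKM with 100 µM. All 100 µM libraries of Rhot2 lay below all libraries of the other 2 groups. Their SD of 0.0363 FPKM was smaller than the 0.202 FPKM that counting error alone gives, so this spread understates the error. Rhot2 is also uncertain because 1307 of its 4442 exon bases (29.4%) overlap Gm20683 on the same strand, and 81 overlap Wdr90, in the GENCODE M21 annotation. Gm20683 reached 0.0180 FPKM at most and Wdr90 4.59 FPKM.

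In HOCl at 100 µM against HBSS, 3 of the 10 genes were higher, 7 were lower and none passed the test. Fis1 averaged 23.6 ± 2.36 FPKM at 100 µM and 19.7 ± 0.819 FPKM in HBSS (SD, n = 3 each), which was 19.8% higher. Rhot2 averaged 3.34 ± 0.0363 FPKM at 100 µM and 3.75 ± 0.213 FPKM in HBSS, 11.0% lower. The other differences were smaller in log2 or within the overlap of the libraries, with Dnm1l at 28.6 ± 1.70 FPKM at 100 µM and 31.4 ± 1.84 FPKM in HBSS. Fis1 and Rhot2 were the 2 of 10 genes whose groups did not overlap, and 34.1% of kept genes did not overlap either.

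Differences were tested with limma on log2(FPKM + 1), two-sided, with Benjamini-Hochberg adjustment over the 12026 kept genes and a call at an adjusted p under 0.05. On 12 libraries the differences of the 10 genes ran from −0.13 to 0.25 with a median of −0.061, and the median over all kept genes was −0.0063. Limma called 0 of the 10 genes and 0% of kept genes, with 0 of the 10 and 933 of all at an unadjusted p under 0.05. Limma-voom on the reads recovered from the FPKM values also called none. The lowest adjusted p among the 10 was 0.665. Confidence intervals (95%) reached from −0.54 to 0.94 over the 10 genes.

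Without cell media replicates 1 and 2 the differences at 100 µM are the same by construction and their errors shrink. On these 10 libraries Fis1 differed by 0.25 with an SE of 0.070, a 95% interval of 0.085 to 0.40 and a limma adjusted p of 0.0793. Rhot2 differed by −0.13 with an SE of 0.051 and a limma adjusted p of 0.127, and Mief1 by −0.12 with an SE of 0.053 and a limma adjusted p of 0.154. These 3 genes had an unadjusted p under 0.05 (0.0072 for Fis1, 0.0331 for Rhot2 and 0.0495 for Mief1, each from limma), as did 3878 of all kept genes. Limma called 0 of the 10 genes and 0.241% of kept genes. The intervals of the 10 genes then lay between −0.29 and 0.40. The call of Fis1 and Rhot2 turned on the weight given to each library: with limma's array weights on 12 libraries Fis1 had 0.29 and an adjusted p of 0.0300 and Rhot2 −0.15 and 0.0336, where 25.5% of kept genes were called. With the replicate number as a block on 10 libraries, Fis1 had a limma adjusted p of 0.0371, where 24.8% of kept genes were called.

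**Figure D2:**
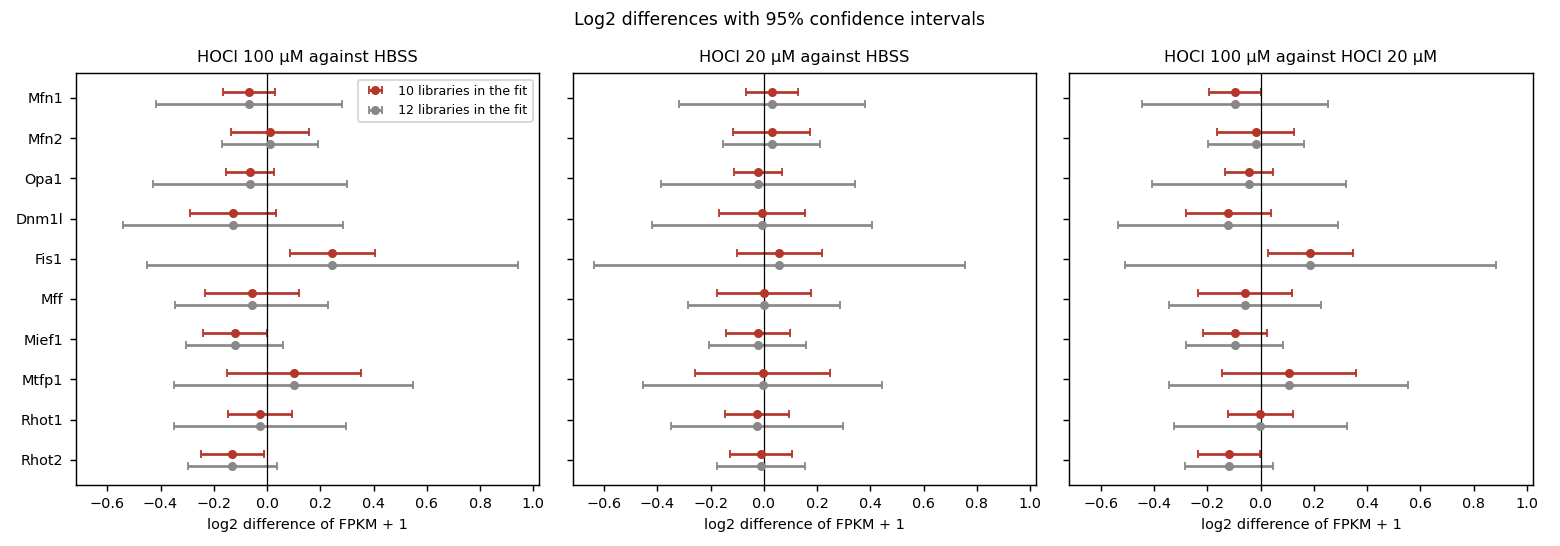
Log2 differences of FPKM + 1 (horizontal axes) of the 10 genes in 3 comparisons, as points with 95% confidence intervals, from limma on 10 libraries in red and on 12 in grey. In both comparisons of 100 µM the red interval of Fis1 lies right of 0 and that of Rhot2 left of 0, the red interval of Mief1 ends just left of 0 against HBSS, and all grey intervals span 0.

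In HOCl at 20 µM against HBSS no gene stood out. Of the 10, 4 were higher and 6 lower, between −0.025 for Rhot1 and 0.058 for Fis1, with a median of −0.0058 against 0.0057 over all kept genes. Fis1 averaged 20.6 ± 0.756 FPKM at 20 µM and 19.7 ± 0.819 FPKM in HBSS. The groups overlapped for all 10 genes, and 7.69% of kept genes did not overlap. Limma called 0 of the 10 and 0% of kept genes on 12 and on 10 libraries, limma-voom called none, and the limma adjusted p was 1.00 for each of the 10. None of the 10 had an unadjusted p under 0.05, against 130 of all kept genes on 12 libraries and 371 on 10. On 10 libraries the 95% intervals lay between −0.26 and 0.25, so differences beyond these lay outside the intervals. The comparison shares its HBSS libraries with that of 100 µM.

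In HOCl at 100 µM against 20 µM, Fis1 and Mtfp1 were higher and the other 8 genes lower. Fis1 averaged 23.6 ± 2.36 FPKM at 100 µM and 20.6 ± 0.756 FPKM at 20 µM, a log2 difference of 0.19. Rhot2 averaged 3.34 ± 0.0363 FPKM at 100 µM and 3.71 ± 0.126 FPKM at 20 µM, a difference of −0.12. Mfn1 averaged 10.3 ± 0.372 FPKM at 100 µM and 11.1 ± 0.0883 FPKM at 20 µM, a difference of −0.097. Mfn1 and Rhot2 did not overlap between the doses, as was so for 28.3% of kept genes. Limma called 0 of the 10 and 0% of kept genes on 12 and on 10 libraries, and limma-voom called none. The lowest limma adjusted p among the 10 was 0.825 on 12 libraries and 0.152, of Fis1, on 10, where Fis1 (0.0266) and Rhot2 (0.0475) had an unadjusted limma p under 0.05, beside 3156 of all kept genes. With array weights limma called Dnm1l, Fis1 and Rhot2, where 38.9% of kept genes were called. This comparison shares its 100 µM libraries with the one against HBSS.

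In HBSS against cell media the differences were larger and rested on cell media replicates 1 and 2. Fis1 averaged 19.7 ± 0.819 FPKM in HBSS and 41.8 ± 20.5 FPKM in cell media, where its libraries had 52.7, 54.5 and 18.2 FPKM. Dnm1l averaged 31.4 ± 1.84 FPKM in HBSS and 22.3 ± 8.36 FPKM in cell media, where its libraries had 17.7, 17.1 and 31.9 FPKM. Opa1 averaged 15.9 ± 0.480 FPKM in HBSS and 11.6 ± 4.09 FPKM in cell media, with libraries at 9.74, 8.84 and 16.3 FPKM. In all 3 genes the third cell media library lay with or next to the HBSS libraries.

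On 12 libraries 8 of the 10 genes were higher in HBSS and 2, Fis1 and Mtfp1, were lower, with a median of 0.24 against 0.10 over all kept genes. Fis1 differed by −0.90 (SE 0.32, limma adjusted p 0.0797), Dnm1l by 0.53 (SE 0.19, limma adjusted p 0.0795), Opa1 by 0.47 (SE 0.17, limma adjusted p 0.0801) and Mfn2 by 0.25 (SE 0.082, limma adjusted p 0.0718). An unadjusted limma p under 0.05 was found for 7 of the 10 and for 4806 of all kept genes, and limma called 0 of the 10 and 0.0166% of kept genes. Mfn2 and Mief1 did not overlap between the groups, both higher in HBSS, as was so for 21.6% of kept genes in either direction. Against cell media replicate 3 alone, on 10 libraries, the 10 genes differed by −0.13 (Mff) to 0.30 (Mtfp1), with Fis1 at 0.11, and limma called none of them and 0% of kept genes at a lowest adjusted p of 0.644, with 823 of all kept genes at an unadjusted p under 0.05. A single cell media library is there assumed to vary like the other groups. Without cell media replicate 3 limma called 9 of the 10, all but Rhot2, where 65.3% of kept genes were called, and Fis1 then differed by −1.40 (adjusted p 1.33e-06). With array weights 9 of the 10 were called too, where 57.3% of kept genes were called.

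Cell media replicates 1 and 2 had levels of most of these genes that no other library had. In 9 of the 10 genes both lay outside the range of the other 10 libraries, as they did in 56.5% of kept genes, and Rhot2 was the exception. Fis1 had a mean of 53.6 FPKM in these libraries and 21.0 FPKM in the other 10, a ratio of 2.56, and Mtfp1 had 4.89 and 3.07 FPKM, a ratio of 1.59. The ratio was 0.570 for Dnm1l, 0.594 for Opa1, 0.618 for Mfn1, 0.636 for Rhot1, 0.779 for Mff, 0.795 for Mfn2 and 0.824 for Mief1. The fusion genes and the Drp1 GTPase were thus lower in the same libraries in which Fis1 was higher. The summed FPKM of all 10 genes was between 137 and 146 in all 12 libraries, at 138 in each of these 2. The total FPKM over all gene IDs was 3.891e+05 and 3.875e+05 in these 2 libraries. It was 3.072e+05 to 3.364e+05 in the other 10, so the same sum is a smaller share of the total in these 2.

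In these 2 libraries and at 100 µM, the shorter of the 10 genes were higher and most of the longer ones lower; Mfn2, at 0.011 in 100 µM against HBSS, was the exception above 0. Fis1 and Mtfp1 are the shortest of the 10, with 1714 and 1738 exon bases, and the other 8 have 4442 bases (Rhot2) to 9757 bases (Mff). The 11895 kept genes with a known length were put into 5 classes of about equal size by length. The median of cell media replicates 1 and 2 minus the other 10 libraries was 0.074 in the shortest class, which holds none of the 10 genes, and 0.12 in the class of 1527 to 3057 bases, which holds Fis1 and Mtfp1. It was −0.11 in the next class, with Rhot2, −0.26 in the class after it, with Mfn1, Mfn2 and Dnm1l, and −0.42 in the longest, with Opa1, Mff, Mief1 and Rhot1. In HOCl at 100 µM against HBSS the medians of the 5 classes, short to long, were 0.12, 0.074, 0.011, −0.052 and −0.12. With 20 µM against HBSS they lay between 0.0025 and 0.036. With each library's trend on length removed, the 100 µM difference was 0.17 for Fis1, 7 of the 10 genes were higher and 3 lower, the median turned to 0.031, and limma called none. In HBSS against cell media Fis1 was then at −0.75. The part of transcript length in these differences was not tested further.

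**Figure D3:**
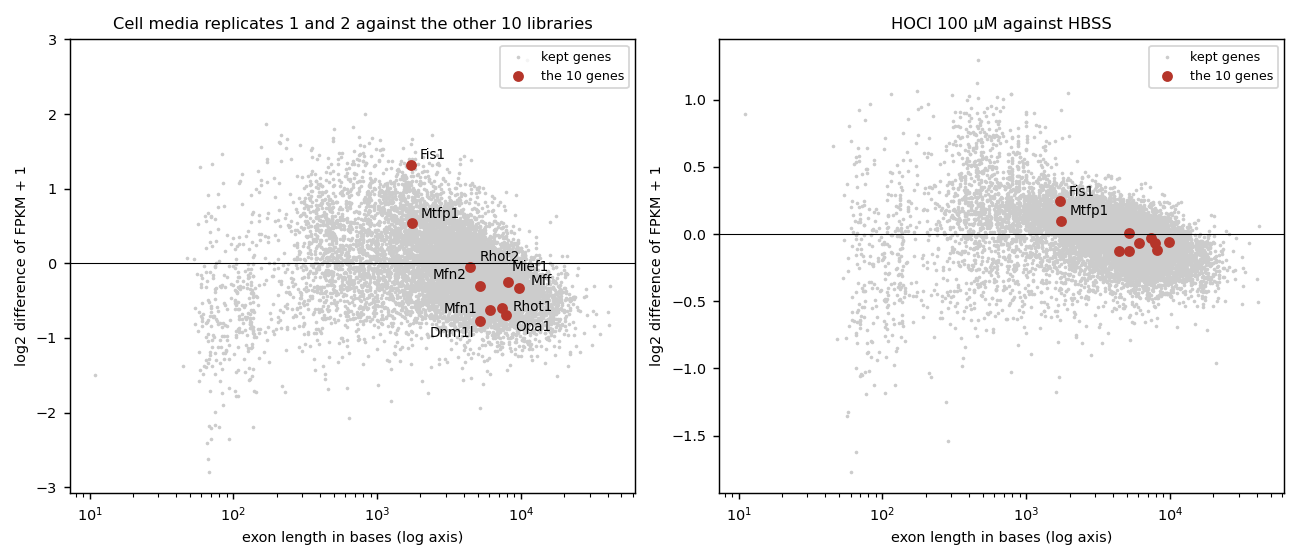
Log2 difference of FPKM + 1 (vertical axes) against exon length in bases (log axis) for kept genes in grey and the 10 genes in red, for cell media replicates 1 and 2 minus the other 10 libraries on the left and HOCl at 100 µM against HBSS on the right. Fis1 and Mtfp1, the shortest of the 10, lie above 0 in both panels, and the longer genes lie mostly below 0.

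Ratios within a library do not depend on its scale, but they keep any trend on exon length. Fis1 has 1714 exon bases and Dnm1l 5203, and the part of length in their ratio was not tested. Fis1 over Dnm1l was 0.568 to 0.689 in HBSS, 0.611 to 0.739 with 20 µM and 0.687 to 0.933 with 100 µM, and it was 2.97, 3.18 and 0.570 in the 3 cell media libraries. Mfn2 over Mfn1 was 1.35 to 1.54 in HBSS, 1.39 to 1.60 with 20 µM and 1.52 to 1.64 with 100 µM, and 1.78, 2.01 and 1.23 in cell media. Rhot1 over Rhot2 was 3.06 to 3.53 in HBSS, 3.0 to 3.48 with 20 µM and 3.44 to 3.89 with 100 µM, and 2.51, 2.02 and 3.44 in cell media. In each pair the 100 µM libraries had the highest average of the 3 doses and overlapped the HBSS libraries. The ratios are a description and no test of them was run.

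**Figure D4:**
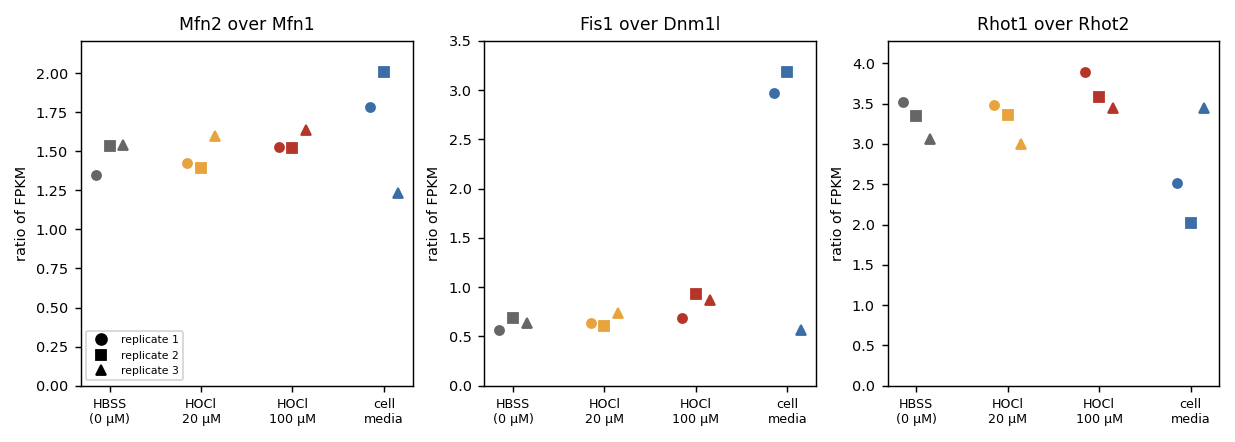
Ratio of FPKM (vertical axes, from 0) of 3 pairs of genes in every library, by group, with a marker for each replicate number. Fis1 over Dnm1l is at 2.97 and 3.18 in cell media replicates 1 and 2 and below 1 in the other 10 libraries. Fis1 and Dnm1l differ in exon length, with 1714 and 5203 bases.

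Around the 10 genes, 4 lists of their partners were read in the comparison of 100 µM with HBSS, where 48.5% of all kept genes were higher. Limma called no gene of any list, on 12 or 10 libraries and in any of the 4 comparisons. Over all kept genes, 32.2% had an unadjusted p under 0.05 on 10 libraries, which is the background for the counts of each list. The lists were not matched for exon length, and class medians ran from 0.12 in the shortest genes to −0.12 in the longest. The part of length in the counts and medians of the lists, and in the single genes named from them, was not tested. Of 20 kept genes for inner membrane shape and fusion support, 16 were higher and 4 lower, with a median of 0.097, and 7 had an unadjusted p under 0.05 on 10 libraries. Samm50, the core of the sorting and assembly machinery of the outer membrane, averaged 29.0 ± 1.44 FPKM at 100 µM and 24.9 ± 1.63 FPKM in HBSS (difference 0.21, limma adjusted p 0.654 on 12 libraries and 0.0932 on 10). Dnajc11, a J-domain protein found with it, averaged 7.76 ± 0.179 FPKM at 100 µM and 6.82 ± 0.451 FPKM in HBSS. Letm1, an inner membrane protein of ion exchange, averaged 7.21 ± 0.295 FPKM at 100 µM and 6.40 ± 0.313 FPKM in HBSS.

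Of 28 kept partners and regulators of fission, 14 were higher and 14 lower, with a median of 0.0025 and 8 at an unadjusted p under 0.05 on 10 libraries. Mtfr1l, a fission regulator, averaged 10.5 ± 0.444 FPKM at 100 µM and 9.49 ± 0.0851 FPKM in HBSS. Inf2 and Spire1 are actin nucleators that help Drp1 constrict the membrane. Inf2 averaged 18.0 ± 0.655 FPKM at 100 µM and 16.1 ± 1.08 FPKM in HBSS (limma adjusted p 0.669 on 12 libraries and 0.146 on 10). Spire1 averaged 1.89 ± 0.180 FPKM at 100 µM and 2.33 ± 0.326 FPKM in HBSS (limma adjusted p 0.675 on 12 libraries and 0.138 on 10), and its groups overlapped. The lowest limma adjusted p of this list was 0.662 on 12 libraries and 0.0847 on 10.

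Of 20 kept genes for transport along microtubules and actin, 9 were higher and 11 lower, with a median of −0.076 and 8 at an unadjusted p under 0.05 on 10 libraries. Dync1h1, the heavy chain of dynein, averaged 29.5 ± 4.18 FPKM at 100 µM and 39.3 ± 3.90 FPKM in HBSS (difference −0.41, limma adjusted p 0.669 on 12 libraries and 0.0656 on 10). Dync1h1 was also low in cell media replicates 1 and 2, at 17.9 and 16.3 FPKM, and at 39.7 FPKM in replicate 3. Mtx2, an outer membrane import protein, averaged 20.5 ± 0.959 FPKM at 100 µM and 18.1 ± 0.756 FPKM in HBSS. Klc4, a kinesin light chain, averaged 12.7 ± 0.980 FPKM at 100 µM and 11.1 ± 1.09 FPKM in HBSS. Its groups overlapped, and its limma adjusted p was 0.669 on 12 libraries and 0.188 on 10.

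Of 13 kept genes for the turnover of the fusion and transport GTPases, 7 were higher and 6 lower, with a median of 0.0053 and 2 at an unadjusted p under 0.05 on 10 libraries. Huwe1, a ubiquitin ligase of the mitofusins, averaged 19.7 ± 2.45 FPKM at 100 µM and 24.8 ± 1.56 FPKM in HBSS, with a difference of −0.32 and a limma adjusted p of 0.686 on 12 libraries and 0.0704 on 10. Usp9x, a deubiquitinase, averaged 9.38 ± 1.11 FPKM at 100 µM and 11.8 ± 0.798 FPKM in HBSS. Both genes were also low in cell media replicates 1 and 2. Huwe1 had 12.3, 10.6 and 25.2 FPKM in cell media replicates 1, 2 and 3, and Usp9x had 5.93, 5.58 and 12.5 FPKM. Usp30, a deubiquitinase of the outer membrane, averaged 2.34 ± 0.139 FPKM at 100 µM and 2.08 ± 0.156 FPKM in HBSS. The groups of Usp30 overlapped, with a limma adjusted p of 0.686 on 12 libraries and 0.301 on 10. Miga1, Pld6, Gdap1, Armcx1, Fez1, Mgarp and Snph of the other lists did not pass the filter.

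The genes most like Rhot2, Mief1 and Fis1 over the 9 libraries of HBSS and HOCl were found by Pearson's r of log2(FPKM + 1), as a description across libraries that share a dose order. Kif20b, a kinesin of cell division, came closest to Rhot2 at 0.991, and averaged 14.8 FPKM in HBSS, 14.8 with 20 µM and 12.4 with 100 µM. Samd9l, an interferon-induced gene, followed at 0.974. Prdx4, the peroxiredoxin of the endoplasmic reticulum, came closest to Fis1 at 0.982, and averaged 42.3 FPKM in HBSS, 43.6 with 20 µM and 47.6 with 100 µM. Ptrh2, a mitochondrial peptidyl-tRNA hydrolase, followed at 0.979. Mief1 was most like Jag1, a ligand of Notch, at 0.945 and Klhl21 at 0.944. These genes were picked for the highest r over all kept genes, so a high r follows from the choice. No chance level was computed, and the trend on exon length was not removed.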

How the data were processed

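Messenger RNA of 12 J774A.1 samples was sequenced on 2 instruments named in the labels, which do not say which library ran on which. The authors deposited 1 table of FPKM values for 28977 gene IDs. Per the submitters' processing notes, HISAT2, featureCounts and the GRCm39 build were used. Their versions and settings, and whether strand was used, are not given in the sources used here.

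Values below 1 FPKM times exon length lay on whole reads within 0.01 for 98.26% of values, where chance gives 2%. The step gives each library's reads, which served for depth and for limma-voom. Symbols and exon lengths came from GENCODE M21, a GRCm38 annotation, matched by gene ID, with 28302 IDs named. The match to whole reads rests on these lengths, whereas the processing notes name GRCm39. Which annotation the submitters counted on was not settled. Genes with at least 1 FPKM in at least 3 libraries (12026) were kept, and log2(FPKM + 1) went into limma (version 3.58.1, R 4.3.3) with 1 mean per group, 12 libraries, a mean-variance trend, no covariate, two-sided, Benjamini-Hochberg adjustment over all kept genes, calls at an adjusted p under 0.05. Overlap between groups compares lowest and highest libraries. The limma step was run on simulated data with noise independent between genes and of equal spread in all libraries. That run holds neither unlike libraries nor a trend on exon length, so it does not show how the test behaves with these. Plots used Python 3.11.15, numpy 2.4.6, pandas 2.3.3 and matplotlib 3.10.9.

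The 10 genes, the 4 lists and the tests were chosen with earlier results of these data known. Named were all 10 genes, the 3 genes of each list with the smallest unadjusted p at 100 µM against HBSS, and the 2 genes most like each of the 3 members with the smallest such p. Alternatives were 2 scalings, pseudocounts of 0.1 and 0.5, leaving out the filter or asking for a mean of 5 FPKM, a 2-group fit, the replicate block, no trend, array weights, removal of each library's loess trend on length (span 0.5), limma-voom, 10 libraries, and leaving out each library. Protein sequences were not used here.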

Additional observations from a re-analysis of the deposited data

How the results depend on the processing

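Under the alternatives tried, 499 of 552 gene differences kept direction and side of the threshold, 38 reversed and 15 passed the threshold; of 480 that left out a library, 446 kept both, 25 reversed and 9 passed it. The counts of called genes moved most. In HBSS against cell media, where 2 genes were called, limma called 4 with quantile normalization, 1 with a pseudocount of 0.5 and 1 at a mean of at least 5 FPKM, 5 with no filter, 5 with no trend, 0 with 2 groups in the fit, 0 on 10 libraries, 19 with the length trend removed and 6889 with array weights, and limma-voom called 4. In 100 µM against HBSS, where 0 were called, limma called 1 with no filter, 2 with 2 groups, 29 on 10 libraries and 3067 with array weights, which called 2 of the 10 genes. In 100 µM against 20 µM (0) it called 11 with no filter, 1 with 2 groups and 4677 with array weights, 3 of them among the 10 genes, and in 20 µM against HBSS (0) it called 6 with no filter. In HBSS against cell media array weights called 9 of the 10. Leaving out 1 library gave 0 to 7852 called genes and 0 to 9 of the 10 in HBSS against cell media, 0 to 5 genes in 100 µM against HBSS and 0 to 1 in 100 µM against 20 µM; the highest of the first 3 were without cell media replicate 3.

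Deviations from the group means had correlations of −0.062 to 0.414 between same-numbered libraries and −0.408 to 0.284 between different-numbered ones. The highest same-numbered values, 0.377 and 0.414, were in 100 µM against 20 µM. Whether the numbers mark pairs was not settled. The main fit did not take them as pairs, and the counts of called genes turned on this choice. With the replicate block on 12 libraries limma called 193 genes in HBSS against cell media; on 10 libraries the replicate block gave 2979 in 100 µM against HBSS (1 of the 10), 2088 in 100 µM against 20 µM and 0 in HBSS against cell media.

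The median of the 10 genes moved to −0.0057 on 10 libraries and to 0.0077 with the replicate block there in HBSS against cell media, and with the length trend removed to 0.031 in 100 µM against HBSS and 0.036 in 100 µM against 20 µM. The cause of reversed single differences was not tested. They were largest in HBSS against cell media, where on 10 libraries, with cell media replicate 3 as the only library of its group, they were Mfn1 −0.096, Opa1 −0.036, Dnm1l −0.024, Fis1 0.11, Mff −0.13, Mtfp1 0.30 and Rhot1 −0.040, and with the replicate block there Mfn1 −0.10, Opa1 −0.034, Dnm1l −0.088, Fis1 0.13, Mff −0.22, Mtfp1 0.35 and Rhot1 −0.093. With the length trend removed they were Mfn1 0.0047, Opa1 0.037, Mff 0.070 and Rhot1 0.068 in 100 µM against HBSS, Mfn2 0.034, Opa1 0.059, Mff 0.069, Mief1 0.0072 and Rhot1 0.094 in 100 µM against 20 µM, and Mff −0.095, Mief1 −0.023 and Rhot2 −0.046 in HBSS against cell media. With quantile normalization they were Mfn2 −0.0027 (100 µM against HBSS), Mff −0.016 (20 µM against HBSS), Rhot1 0.012 (100 µM against 20 µM) and Rhot2 −0.067 (HBSS against cell media). With median-of-ratios scaling they were Mff −0.0073 (20 µM against HBSS), Mfn2 0.0062 and Rhot1 0.022 (100 µM against 20 µM) and Rhot2 −0.032 (HBSS against cell media). With array weights they were Mfn2 −0.0047 (100 µM against HBSS), Mfn2 −0.049 and Dnm1l 0.055 (20 µM against HBSS) and Mfn2 0.044 (100 µM against 20 µM).

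Leaving out 1 library turned differences that lay near 0. In 100 µM against HBSS Mfn2 ran from −0.037 to 0.061, Mff from −0.10 to 0.0092 and Rhot1 from −0.076 to 0.0051. In 20 µM against HBSS Mfn2 ran from −0.025 to 0.078, Opa1 from −0.035 to 0.0023, Dnm1l from −0.049 to 0.058, Mff from −0.043 to 0.074, Mief1 from −0.050 to 0.0019, Mtfp1 from −0.11 to 0.098, Rhot1 from −0.044 to 0.0091 and Rhot2 from −0.044 to 0.021. In 100 µM against 20 µM Mfn2 ran from −0.056 to 0.036 and Rhot1 from −0.051 to 0.030. Depth limits Mtfp1 and Rhot2 most, since they had the fewest reads.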
